A study of Homo sapiens with 21 samples.

Results

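The response to 24 h of UM171 was measured in OCI-AML5 cells edited at the gene for EPCR. The comparison used the 3 libraries labelled sgEPCR and UM171 24h and the 3 libraries labelled sgEPCR and DMSO 24h, which together are 6 of the 21 libraries of the series. All 6 came from OCI-AML5, a human acute myeloid leukemia cell line, carried a guide against EPCR and were labelled both EPCR knockdown and EPCR null. The treated cells received 500 nM UM171 and the others the vehicle DMSO. The other 15 libraries came from OCI-AML5 cells without the sgEPCR label, and 6 of them, kept in DMSO (labelled 72 h) or in UM171 for 24 h, served as control cells for a comparison of responses. The labels give the dose as 500 nM, whereas the text of the study gives a lower one for this cell line. The labels speak of a clone and the study of independent clones, but which guide or clone each library came from is not given in the sources used here. P-values therefore describe the spread among these libraries, which may be partly technical.

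UM171 is a pyrimidoindole compound that promotes the expansion of human hematopoietic stem cells in culture, and it is known to trigger degradation of the CoREST corepressor complex through the ubiquitin ligase adaptor KBTBD4. EPCR, the endothelial protein C receptor (CD201), is encoded by PROCR. It presents protein C to thrombin and thrombomodulin, transmits anti-inflammatory signals through protease-activated receptors, and marks primitive blood cells. The comparison addresses which transcripts UM171 changes in leukemia cells in which this receptor was targeted.

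Total expected counts ranged from 28 to 42.7 M in the 6 libraries. In 2 of them a large share of the counts fell on the 37 mitochondrially encoded genes, 35.9% in DMSO replicate 1 and 32.2% in UM171 replicate 2. The other 4 sgEPCR libraries had between 8.09% and 9.21%, and the 15 libraries without the sgEPCR label between 7.73% and 13.5%. Each group thus held 1 high-mitochondrial library. The first principal component, with 66.7% of the variance, separated UM171 from DMSO, and the second, with 30.0%, separated these 2 libraries from the other 4. UM171 replicates 1 and 3 lay almost on top of each other. The median over genes of the chi-square statistic of their counts was 1.275 times its expected value, against 2.224 for DMSO replicates 2 and 3 and 1.89 to 3.47 for pairs of control libraries. Mitochondrial transcripts took 54.0% and 51.9% of all TPM (a length-scaled measure of abundance) in the 2 libraries, against 15.3% to 17.0% in the other 4, so the TPM of other genes is lower there. The fold changes below come from counts scaled by TMM, which adjusts for this composition.

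**Figure D1:**
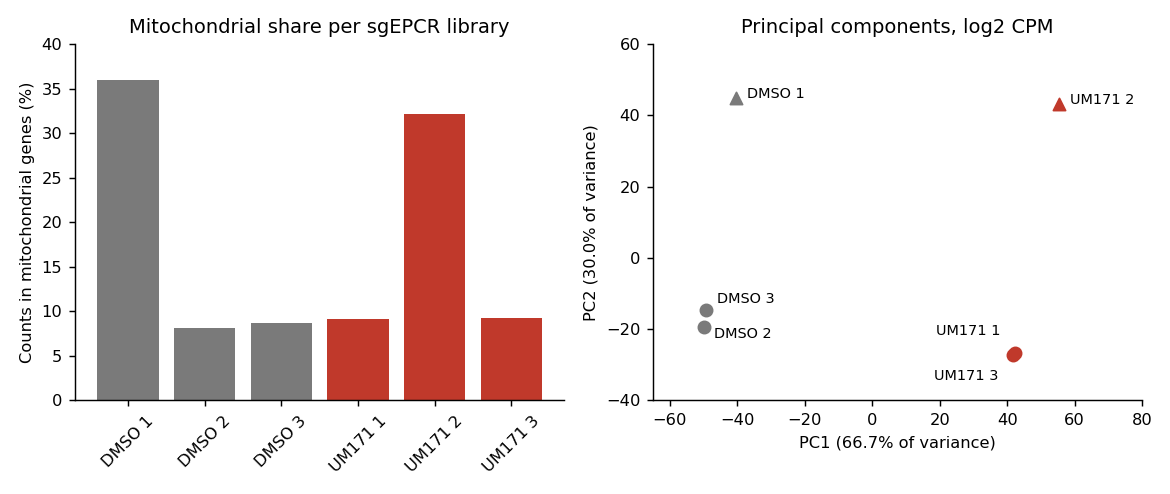
Left, percent of expected counts on mitochondrially encoded genes in each sgEPCR library (grey, DMSO; red, UM171). Right, the first and second principal components of log2 CPM, with the 2 high-mitochondrial libraries as triangles. DMSO 1 reached 35.9% and UM171 2 reached 32.2%, and both stood apart from the other 4 libraries on the second component.

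The identity of the cells was checked by marker genes. Of 7 myeloid leukemia markers, 6 exceeded 1 TPM in at least 1 library, led by SPI1 and CD33, and their sum lay between 167 and 426 TPM in DMSO and between 162 and 455 TPM in UM171. Markers of other blood or tissue cells were mostly at or near 0, with PF4, GP9, ALAS2, MS4A1, DCN, LUM and CDH5 at 0 in all 6 libraries. Exceptions were present in DMSO as well (NCAM1, 28.5 to 32.8 TPM, and CD79A, 7.92 to 21.4 TPM) or were higher in UM171. The sum of 4 T cell markers was 0.07 to 0.69 TPM in DMSO and 6.60 to 17.6 TPM in UM171, almost all of it CD3D, while CD3E, CD2 and CD8A stayed under 1 TPM. The sum of 3 endothelial markers was 5.45 to 7.94 TPM in DMSO and 15.1 to 31.0 TPM in UM171, nearly all of it PECAM1. The sum of 4 megakaryocyte markers was 0.13 to 0.49 TPM in DMSO and 1.89 to 10.3 TPM in UM171, nearly all of it ITGA2B. The sum of 4 fibroblast markers was 0 to 0.01 TPM in DMSO and 0.44 to 1.04 TPM in UM171, and that of 3 epithelial markers 0.02 to 0.07 and 0.17 to 0.44 TPM, so both were low but higher in every UM171 library. The part of these markers in the results was not tested.

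PROCR (ENSG00000101000), the targeted gene, lies on chromosome 20 from 35172072 to 35216240 of GRCh38. Its level was 2.30, 4.53 and 3.93 TPM in DMSO replicates 1 to 3 and 8.94, 4.23 and 8.41 TPM in UM171 replicates 1 to 3. The groups overlapped, as UM171 replicate 2, a high-mitochondrial library, was within the DMSO range. The log2 fold change was 0.67 ± 0.16 (SE; adjusted p = 0.022, edgeR), which is less than 2-fold, and 0.81 without the 2 high-mitochondrial libraries. In control cells PROCR was at 3.37 to 4.30 TPM in DMSO and 48.5 TPM in UM171, a log2 fold change of 3.71. The response in sgEPCR cells minus that in control cells was -3.06 ± 0.17 on the log2 scale (adjusted p = 5.8e-07). Small insertions or deletions leave a transcript that can still be counted, so the RNA level is no check of the editing itself.

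Genes were called at an adjusted p below 0.05 (edgeR's quasi-likelihood test, Benjamini-Hochberg) together with a change above 2-fold. Of 14954 genes tested, 2927 (19.6%) were called, 2043 higher in UM171 (13.7%) and 884 lower (5.91%). A change over 8-fold was seen for 469 of the called rises and 30 of the called falls, and a change over 32-fold for 134 rises and 2 falls. Among 12330 protein-coding genes 13.5% were called higher and 5.88% lower, and among 1553 lncRNA genes 15.5% and 7.08%. The median over all genes was -0.01 on the log2 scale. With limma on log2(TPM + 1), where the median moved to 0.14, 642 genes were called higher and 43 lower. The 3 UM171 libraries lay wholly above the 3 DMSO libraries in TPM for 3073 genes (20.5%) and wholly below for 749 (5.01%).

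The 15 largest rises, among genes that were called, did not overlap between groups and exceeded a mean log2 CPM of 2, were dominated by genes close to absent in DMSO. EMP1, which encodes a tetraspan membrane protein and lies on chromosome 12 from 13196723 to 13219941, was the most abundant of them. EMP1 stood at 1.11, 2.66 and 2.20 TPM in DMSO and at 630, 251 and 642 TPM in UM171. All 3 treated libraries were far above every DMSO library, and the log2 fold change was 7.75 ± 0.24 (adjusted p = 5.6e-05).

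The other large rises covered secreted proteins, surface receptors and enzymes. SLAMF7, a receptor of the SLAM family on immune cells, went from 0.06 to 0.24 TPM in DMSO to 18.5 to 42.0 TPM in UM171 (log2 fold change 7.64). GZMB, the cytotoxic protease granzyme B, went from 0 to 0.20 TPM to 16.3 to 28.6 TPM (7.75 ± 0.73), and without the 2 high-mitochondrial libraries its log2 fold change was 9.66. It was 9.59 without DMSO replicate 1 and 6.91 without DMSO replicate 3. The water and glycerol channel AQP9 went from 0.03 to 0.30 TPM to 5.96 to 9.47 TPM (7.30). GJA1, which encodes a gap junction protein, rose by 7.10, the receptor tyrosine kinase PDGFRA by 6.49 and the lncRNA LUCAT1 by 8.20 on the same log2 scale. Without DMSO replicate 3, GJA1 was at 7.92 and PDGFRA at 7.93. In the plot of the largest changes the DMSO and UM171 points of each gene form separate clouds, as the rule for naming them required.

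**Figure D2:**
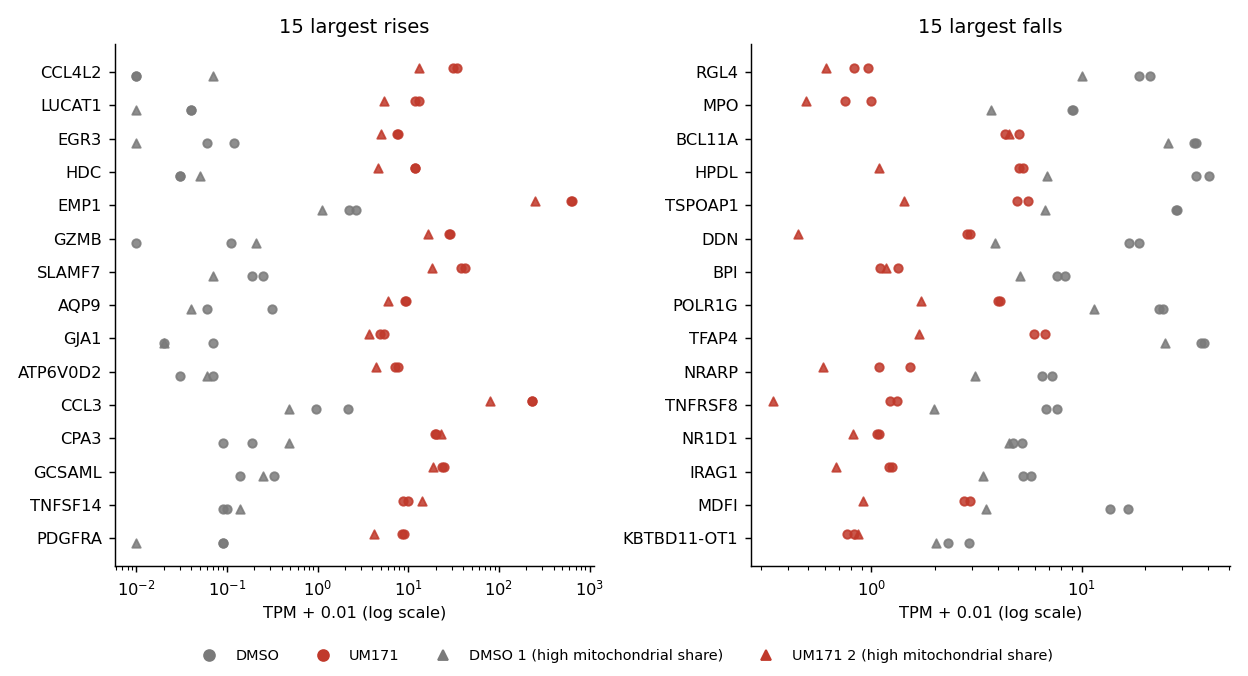
TPM (plus 0.01, log scale) in each sgEPCR library for the 15 genes with the largest rises and the 15 with the largest falls. Grey marks DMSO, red marks UM171, and triangles mark the 2 high-mitochondrial libraries. For EMP1, DMSO lay between 1.11 and 2.66 TPM and UM171 between 251 and 642 TPM.

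Of 47 listed cytokines, chemokines and growth factors, 26 were tested. Of these 16 were called higher and 0 lower (17 and 0 without the high-mitochondrial libraries), with a median log2 fold change of 2.07. Over all genes 13.7% were called higher and 5.91% lower. Members near 0 in DMSO passed the count filter only through the UM171 libraries. In this and the following lists such members could enter only as rises, which adds to the counts and medians. CCL2, a chemokine for monocytes and the most abundant member, was at 42.0, 64.6 and 62.1 TPM in DMSO and at 1917, 1339 and 1936 TPM in UM171. The log2 fold change of CCL2 was 4.69 ± 0.24 (adjusted p = 0.00013). CCL3, a macrophage chemokine, was at 0.47, 2.16 and 0.95 TPM in DMSO and at 230, 79.4 and 232 TPM in UM171 (log2 fold change 6.90 ± 0.37). The near-identical copies of CCL3 and CCL4 share reads, so the split between CCL3, CCL4 and CCL4L2 is uncertain.

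Several mediators were absent or almost absent without the compound. CCL4L2 had 1 count in the DMSO libraries together and 1176 in the UM171 libraries, a ratio of 1051 with a 95% counting interval of 188 to 41550. CCL20, which attracts cells carrying CCR6, had 2 and 452 counts, a ratio of 202 with an interval of 55.6 to 1673. Its level was highest in UM171 replicate 2, at 16.9 TPM against 4.70 and 4.95 TPM in the other treated libraries. IL6 and IL12B, an inflammatory interleukin and the shared p40 subunit of interleukins that drive T cell responses, had no count in any DMSO library. Against a floor of 3 counts over the DMSO group, IL6 was at least 17.0-fold higher and IL12B at least 23.2-fold higher, although both stayed at or under 1.02 TPM. TNFSF14 (LIGHT), a ligand of the TNF superfamily, was at 0.13, 0.08 and 0.09 TPM in DMSO and 9.92, 14.1 and 8.84 TPM in UM171, a log2 fold change of 6.49 ± 0.82. It was 7.08 without DMSO replicate 1 and 5.62 without UM171 replicate 2.

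Within the interleukin-1 family and the inflammasome, which cleaves its precursors, 7 of 16 tested genes were called higher and 1 lower, with a median of 0.60. IL33, an alarmin of this family, had 0 counts in DMSO and 298 in UM171, at least 88.8-fold higher. IL1B was at 0.97, 1.62 and 2.07 TPM in DMSO and 89.1, 47.0 and 90.2 TPM in UM171 (5.33 ± 0.15). IL1RN, the soluble antagonist of the interleukin-1 receptor and the most abundant member, also rose, from 35.4, 80.9 and 81.5 TPM to 371, 186 and 374 TPM, with a log2 fold change of 2.04 ± 0.10 (adjusted p = 0.00012). NLRP1, an inflammasome sensor, rose by 4.62, and IL1RL1, the receptor for IL33, by 3.71 on the log2 scale at no more than 0.84 TPM.

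NF-kB is the transcription factor family that sits downstream of these receptors. Among 24 of its subunits, kinases and inhibitors, 9 were called higher and 0 lower (9 and 1 without the high-mitochondrial libraries). The median was only 0.11 because most kinases and subunits moved little. RELB and NFKB2, the subunits of the alternative arm, rose by 2.39 ± 0.50 and 2.07 ± 0.28. RELB was at 0.46, 1.87 and 1.70 TPM in DMSO and at 11.9, 2.12 and 11.9 TPM in UM171, so that the 2 high-mitochondrial libraries were each the lowest of their group. Without DMSO replicate 3 RELB was not called (2.43). RELA, the main subunit of the classical arm, was at 56.3, 49.8 and 49.6 TPM in DMSO and 60.7, 57.5 and 63.8 TPM in UM171. Its log2 fold change was 0.06 ± 0.13 (adjusted p = 0.76). Other called members were BIRC3, an inhibitor of apoptosis that ubiquitinates pathway components (4.46 ± 0.42), TRAF1, an adaptor of TNF receptors (2.60), and TNFAIP3 (A20), a deubiquitinase that dampens the pathway (1.77). In UM171 replicate 2 BIRC3 had its highest level, 4.39 TPM against 3.70 and 3.11 TPM, where RELB had its lowest of the treated libraries.

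Immediate early and AP-1 transcription factors, which are induced within minutes of many stimuli, were largely called higher at 24 h, 17 of 26 tested against 0 lower, with a median of 2.07. EGR1, a zinc finger factor, was at 2.09, 1.99 and 2.18 TPM in DMSO and 72.0, 68.3 and 75.8 TPM in UM171, with a log2 fold change of 4.83 ± 0.45. FOSB, a subunit of AP-1, went from 0.15, 0.39 and 0.38 TPM to 10.5, 4.42 and 10.1 TPM (4.68 ± 0.17). The orphan nuclear receptor NR4A3 rose by 6.04 (6.79 without DMSO replicate 1), EGR3 by 8.0 and the stress response gene IER3 by 4.79. JUND, the most abundant member, rose by 1.5 ± 0.09 from 34.4 to 81.4 TPM in DMSO to 126 to 255 TPM in UM171. Feedback inhibitors of ERK and cytokine signaling were mixed, with 4 of 17 called higher and 1 lower (4 and 2 without the high-mitochondrial libraries). The shares over all genes were 13.7% and 5.91%. SPRY4 rose by 4.03 and SOCS1 by 2.10, whereas SPRY1 fell by 1.37 on the log2 scale.

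Promoter sequence of the responding genes was described next. The window was the 250 bases before the RefSeq start site (GRCh38.p14), available for 10676 tested genes, and both strands were searched. The AP-1 site TGANTCA was found in 7.70% of the promoters of genes called higher, 3.74% of those called lower and 3.90% of all. The E-box CACGTG was found in 6.06%, 12.7% and 8.95%, and the cyclic AMP response element in 2.14%, 2.84% and 2.88%, in the same order. The NF-kB consensus was found in 6.56%, 4.93% and 5.72%. It was present in 9 of 19 promoters of the cytokine list and 7 of 21 of the NF-kB list, and also in 6 of 12 of the MHC class I list, most of whose genes were not called. These matches are a description of the letters and not of binding. The windows below belong to named genes that moved and hold a match, and are written 5′ to 3′ on the strand of the gene with the match in capitals. They are EMP1 and F3 (tissue factor) with the AP-1 site, BIRC3 and CCL20 with the NF-kB consensus, and POLR1G, an RNA polymerase I subunit that fell, with the E-box. Their positions are chr12:13196476-13196725 (plus strand), chr1:94541760-94542009 (minus), chr11:102317234-102317483 (plus), chr2:227813592-227813841 (plus) and chr19:45406394-45406643 (plus).
EMP1: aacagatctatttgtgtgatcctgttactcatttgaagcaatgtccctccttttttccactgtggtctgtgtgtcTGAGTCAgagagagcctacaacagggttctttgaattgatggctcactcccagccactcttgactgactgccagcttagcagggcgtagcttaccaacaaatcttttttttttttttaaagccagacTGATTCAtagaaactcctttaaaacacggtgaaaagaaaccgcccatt
F3: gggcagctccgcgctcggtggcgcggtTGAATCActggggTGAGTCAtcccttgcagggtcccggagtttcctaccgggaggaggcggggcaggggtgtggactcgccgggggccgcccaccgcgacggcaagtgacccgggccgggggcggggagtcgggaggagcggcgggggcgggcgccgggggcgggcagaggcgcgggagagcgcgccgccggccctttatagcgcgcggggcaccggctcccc
BIRC3: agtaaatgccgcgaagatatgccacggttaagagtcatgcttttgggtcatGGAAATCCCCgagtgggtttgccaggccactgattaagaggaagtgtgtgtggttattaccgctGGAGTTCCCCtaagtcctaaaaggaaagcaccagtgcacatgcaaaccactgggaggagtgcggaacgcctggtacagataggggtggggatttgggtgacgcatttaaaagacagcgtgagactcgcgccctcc
CCL20: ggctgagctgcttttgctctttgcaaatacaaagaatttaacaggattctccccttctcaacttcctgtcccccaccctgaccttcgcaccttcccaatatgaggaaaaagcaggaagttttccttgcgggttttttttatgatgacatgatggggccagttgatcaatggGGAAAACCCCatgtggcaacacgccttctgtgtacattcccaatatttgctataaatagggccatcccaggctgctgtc
POLR1G: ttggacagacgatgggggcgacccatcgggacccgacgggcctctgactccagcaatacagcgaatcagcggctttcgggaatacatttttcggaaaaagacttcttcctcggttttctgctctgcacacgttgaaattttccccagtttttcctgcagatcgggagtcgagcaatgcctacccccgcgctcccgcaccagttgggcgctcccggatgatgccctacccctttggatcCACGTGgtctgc

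Of 15 tested genes of coagulation, fibrinolysis and the protein C pathway, 11 were called higher and 0 lower, the pathway to which EPCR belongs (10 and 0 without the high-mitochondrial libraries), with a median of 2.20. F3, tissue factor, which starts coagulation, was at 0.67, 1.5 and 1.69 TPM in DMSO and 21.6, 13.6 and 21.3 TPM in UM171, a log2 fold change of 3.55 ± 0.19 (adjusted p = 0.00016). Its inhibitor TFPI was at 1.47, 0.84 and 1.25 TPM in DMSO and 23.7, 19.7 and 22.8 TPM in UM171 (4.47 ± 0.32). F5, factor V, a cofactor that activated protein C inactivates, rose by 4.36 ± 0.56 from 0.88 to 1.48 TPM to 30.1 to 30.9 TPM. On the fibrinolytic side, PLAUR, the urokinase receptor and the most abundant member, rose by 2.79 ± 0.11, from 11.2 to 18.5 TPM to 110 to 152 TPM. Procoagulant and anticoagulant members rose together, and PROCR itself was among the 4 that were not called.

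Of the enzymes and receptors of eicosanoids, the prostaglandins and leukotrienes made from arachidonic acid, 8 of 16 were called higher and 1 lower, with a median of 1.13. PTGS2 (cyclooxygenase 2) was at 0.52, 0.56 and 0.73 TPM in DMSO and 22.6, 13.3 and 23.5 TPM in UM171 (5.11 ± 0.13, adjusted p = 5.6e-05). On the leukotriene branch, ALOX5 rose by 3.61 and its activating protein ALOX5AP by 3.33 (3.92 without DMSO replicate 1). The prostaglandin D synthase HPGDS had 1 count in DMSO and 272 in UM171, a ratio of 243 with a counting interval of 43.3 to 9638. HPGD, which inactivates prostaglandins, rose by 3.79 (4.43 without DMSO replicate 2) at no more than 0.53 TPM. PTGES3, the most abundant member and a cochaperone, had a log2 fold change of -0.63.

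Surface receptors of monocytes, macrophages and dendritic cells were mostly higher, with 15 of 23 called higher and 2 lower and a median of 1.43. TREM1, which amplifies inflammatory signaling, was at 0.23, 0.84 and 0.75 TPM in DMSO and 19.2, 11.6 and 20.1 TPM in UM171 (4.71 ± 0.23). CD44, the hyaluronan receptor and the most abundant member, was at 398, 378 and 379 TPM in DMSO and 975, 1273 and 999 TPM in UM171 (1.35 ± 0.14). The costimulatory ligand CD86 rose by 3.37, and CD80 had 0 counts in DMSO and 52 in UM171, at least 15.5-fold higher. The chemokine receptor CCR7 rose by 5.15 (5.76 without DMSO replicate 3) from at most 0.09 TPM to 0.64 to 2.59 TPM.

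In the MHC class I list 1 of 15 genes was called higher (HLA-F, 1.21, and between 0.94 and 1.46 and not called when any library but UM171 replicate 2 was left out) and in the class II list 2 of 9 (3 of 9 without the high-mitochondrial libraries), against 13.7% of all genes. HLA genes resemble each other, so their counts are uncertain. Of 24 interferon-stimulated genes 9 were called higher and 0 lower (11 and 0 without these libraries), with a median of 0.59. RSAD2 (viperin), an antiviral enzyme, rose by 3.26, and GBP2, a guanylate-binding protein, by 1.90 ± 0.15, from 40.4, 42.2 and 44.1 TPM to 173, 152 and 168 TPM.

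Genes of mast cells, basophils and eosinophils had the highest median of the lists, 3.48. Of 19 listed genes 10 were tested, and 8 were called higher and 1 lower (8 and 2 without the high-mitochondrial libraries). The member called lower had a log2 fold change of -1.88. Among the members not tested, GATA1 and CLC were at 0 TPM in all 6 libraries. EPX, FCER1A and CCR3 were at no more than 0.22 TPM. Members near 0 in DMSO, such as HDC and CPA3, passed the count filter only through UM171, so the count and median lean toward rises. HDC, which makes histamine, was at 0.04, 0.02 and 0.02 TPM in DMSO and 12, 4.60 and 12 TPM in UM171 (7.77 ± 0.41, adjusted p = 0.00016). With 2, 1 and 1 counts in DMSO the size is uncertain, and it was 8.56 without the 2 high-mitochondrial libraries, 8.43 without DMSO replicate 1 alone and 5.69 in the high-mitochondrial pair. CPA3, a mast cell carboxypeptidase, was at 0.47, 0.18 and 0.08 TPM in DMSO and 19.6, 22.9 and 20.4 TPM in UM171 (6.79 ± 0.48). ENPP3 rose by 5.86, the lectin receptor SIGLEC6 by 4.21 and the tryptase TPSAB1, whose copies share reads, by 3.65. RNASE2, the eosinophil ribonuclease and the most abundant member, lay between 144 and 190 TPM in DMSO and between 78.0 and 99.2 TPM in UM171, with a log2 fold change of -1.23 ± 0.55 that did not pass (adjusted p = 0.13) and was -0.57 without DMSO replicate 1. Only 6 of 26 listed erythroid and megakaryocyte genes were detected well enough to test. Of these 4 were called higher and 0 lower (4 and 1 without the high-mitochondrial libraries), against 13.7% and 5.91% of all genes. TFRC, the most abundant member, had a log2 fold change of -0.98 ± 0.11 (adjusted p = 0.0015, edgeR) and was not called. THBS1 (thrombospondin 1) rose by 5.75 ± 0.23, from at most 0.57 TPM in DMSO to 13.5 to 29.2 TPM, and the platelet integrin subunits ITGA2B and ITGB3 rose by 3.92 and 3.00. PF4, GP9 and ALAS2 were at 0, and whether more cells or more RNA per cell underlie such values cannot be told apart in bulk RNA.

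The largest falls were led by RGL4, a guanine nucleotide exchange factor, which was at 10.1, 18.7 and 21.1 TPM in DMSO and 0.82, 0.60 and 0.95 TPM in UM171. It fell by 4.41 ± 0.17 on the log2 scale (adjusted p = 7.4e-05). MPO, the myeloperoxidase of neutrophil granules (chromosome 17, 58269855 to 58280935), was at 3.69, 9.08 and 8.98 TPM in DMSO and 0.99, 0.48 and 0.74 TPM in UM171, and fell by 3.46 ± 0.16. BCL11A, a zinc finger repressor known for silencing fetal globin, was at 25.7, 34.8 and 34.2 TPM in DMSO and 5.02, 4.49 and 4.29 TPM in UM171. No UM171 library reached the DMSO range in these genes, and BCL11A fell by 3.18 ± 0.27. The other large falls included the circadian repressor NR1D1 (-2.62), the MYC target TFAP4 (-2.66) and the Notch feedback inhibitor NRARP (-2.64).

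In the list of neutrophil granule and S100 genes, 4 of 11 tested members were called higher and 3 lower. BPI, a bactericidal granule protein, fell by 2.78 ± 0.22 like MPO, whereas the calcium-binding proteins S100A10 (2.60 ± 0.11), S100A11 (2.02 ± 0.22) and S100A6 (1.68 ± 0.22) rose. S100A11 was at 153, 230 and 240 TPM in DMSO and 1027, 845 and 1058 TPM in UM171.

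Of 19 tested regulators of stem and progenitor cells 6 were called lower and 1 higher, with a median of -0.66. FLT3, a receptor tyrosine kinase of progenitors and a common mutation target in this leukemia, was at 7.47, 16.5 and 17.1 TPM in DMSO and 3.12, 1.86 and 3.42 TPM in UM171. It fell by 2.48 ± 0.11 (adjusted p = 9.0e-05). MYC, at 166, 404 and 419 TPM in DMSO and 121, 50.7 and 124 TPM in UM171, fell by 1.96 ± 0.14. MYB, the most abundant member, was at 293, 285 and 297 TPM in DMSO and 157, 166 and 158 TPM in UM171 (-1.04 ± 0.31, adjusted p = 0.039). MYB was no longer called when DMSO replicate 1, 2 or 3 or UM171 replicate 1 or 3 was left out, with log2 fold changes of -0.76, -1.2, -1.17, -0.92 and -0.92. TAL1 fell by 1.62, whereas GATA2, a partner of TAL1 in progenitors, was the called rise (1.46 ± 0.25).

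Ribosome biogenesis had the largest share of called falls among the lists, with 14 of 21 lower and 0 higher (17 and 0 without the high-mitochondrial libraries) and a median of -1.17. All 21 tested members had a negative log2 fold change. RRS1 fell by 1.87 ± 0.14, from 57.9, 144 and 138 TPM to 45.6, 18.7 and 45.3 TPM. NOP16 fell by 1.87, the ribosomal transcription regulator MYBBP1A by 1.81, the RNA polymerase I subunit POLR1B by 1.67 and RRP9 by 1.64. POLR1G, also of RNA polymerase I and among the 15 largest falls, went from 11.4, 23.2 and 24.4 TPM to 3.99, 1.72 and 4.07 TPM (-2.76 ± 0.13).

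Every one of 34 DNA replication genes had a negative log2 fold change, from -1.13 to -0.17, and 6 were called lower (8 without the high-mitochondrial libraries). The MCM helicase subunits MCM2, MCM5 and MCM6 fell by 1.13, 1.11 and 1.09. MCM2 and MCM5 were not called without DMSO replicate 2 (-1.02 and -1.03), DMSO replicate 3 (-1.05 and -1.07) or UM171 replicate 2 (-0.95 and -0.90). All 30 genes of G2 and mitosis were likewise negative, from -1.42 to -0.15, and 13 were called lower (10 without these libraries). TOP2A, the mitotic topoisomerase, was at 122, 235 and 223 TPM in DMSO and 122, 84.7 and 125 TPM in UM171 and fell by 1.13 ± 0.14. KIF20A fell by 1.42, CDC20 by 1.2 (-1.14 and not called without DMSO replicate 3) and CCNA2 (cyclin A2) by 1.17. The CDK inhibitor CDKN1A (p21) was at 50.1, 190 and 175 TPM in DMSO and 760, 235 and 774 TPM in UM171, and rose by 1.90 ± 0.31 (adjusted p = 0.0051). In its list 3 of 14 tested members were called higher and 1 lower (4 and 1 without the high-mitochondrial libraries). The shares over all genes were 13.7% and 5.91%.

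Of 13 tested genes of the BCL2 family 3 were called higher and 1 lower, against 13.7% and 5.91% of all genes. BCL2A1, an antiapoptotic member induced by NF-kB, was at 0.65, 1.14 and 1.11 TPM in DMSO and 14.9, 11.9 and 14.6 TPM in UM171 (3.68 ± 0.25). The proapoptotic BH3-only genes BBC3 (1.67 ± 0.51) and BMF (1.21 ± 0.24) rose as well, although BBC3 was not called, at 1.37 to 1.90, when any library but UM171 replicate 2 was left out. BCL2 itself was at 95.8, 50.1 and 49.2 TPM in DMSO and 20.1, 39.4 and 21.6 TPM in UM171, where both highest values of a group came from the high-mitochondrial libraries, and fell by 1.37 ± 0.11.

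Redox defense genes, the enzymes that detoxify peroxides and electrophiles, were mostly not called, with 4 of 35 higher and 1 lower and a median of -0.12. These counts were near or below the shares over all genes, 13.7% higher and 5.91% lower. HMOX1, heme oxygenase 1 (chromosome 22, 35380361 to 35394214), was at 0.19, 1.19 and 1.04 TPM in DMSO and 33.8, 5.83 and 32.5 TPM in UM171, with a log2 fold change of 4.62 ± 0.61. SLC7A11, the cystine transporter that feeds glutathione synthesis, rose by 2.95 ± 0.13, and GLRX and NQO1 rose by 1.60 and 1.42. CAT, catalase, fell by 1.09 ± 0.12.

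Of 23 genes of cholesterol and lipid regulation 4 were called lower and 1 higher, among them the transporter ABCA1 (-1.39), INSIG1 (-1.30) and SREBF1 (-1.2). SREBF1 was not called without DMSO replicate 2 (-1.12), DMSO replicate 3 (-1.18) or UM171 replicate 2 (-0.97). Of 17 genes of serine, glycine and folate metabolism 2 were called lower and 1 higher (3 and 1 without the high-mitochondrial libraries). Of 25 glycolysis and hypoxia genes 3 were called higher and 1 lower, the glucose transporter SLC2A3 by 2.97 and the hexokinase HK2 by -1.52. Over all genes 13.7% were called higher and 5.91% lower. The counts of this list and of the amino acid stress and chaperone lists were near or below those shares. In the amino acid stress list (3 of 24 higher, 1 lower) DDIT4 rose by 2.65, and in the heat shock and ER chaperone list (2 of 18 higher, 0 lower) HERPUD1 rose by 1.62. Of 31 replication-dependent histone genes 6 were called higher and 0 lower (6 and 1 without the high-mitochondrial libraries). Their messages largely lack poly(A) tails and their copies share reads. None of 13 tested genes of the LSD1-CoREST complex and its ligase was called (edgeR). HDAC2, the most abundant, had a log2 fold change of -0.53 ± 0.15. None of the 15 tested mitochondrially encoded genes was called either, with values between -0.62 and 0.95.

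**Figure D3:**
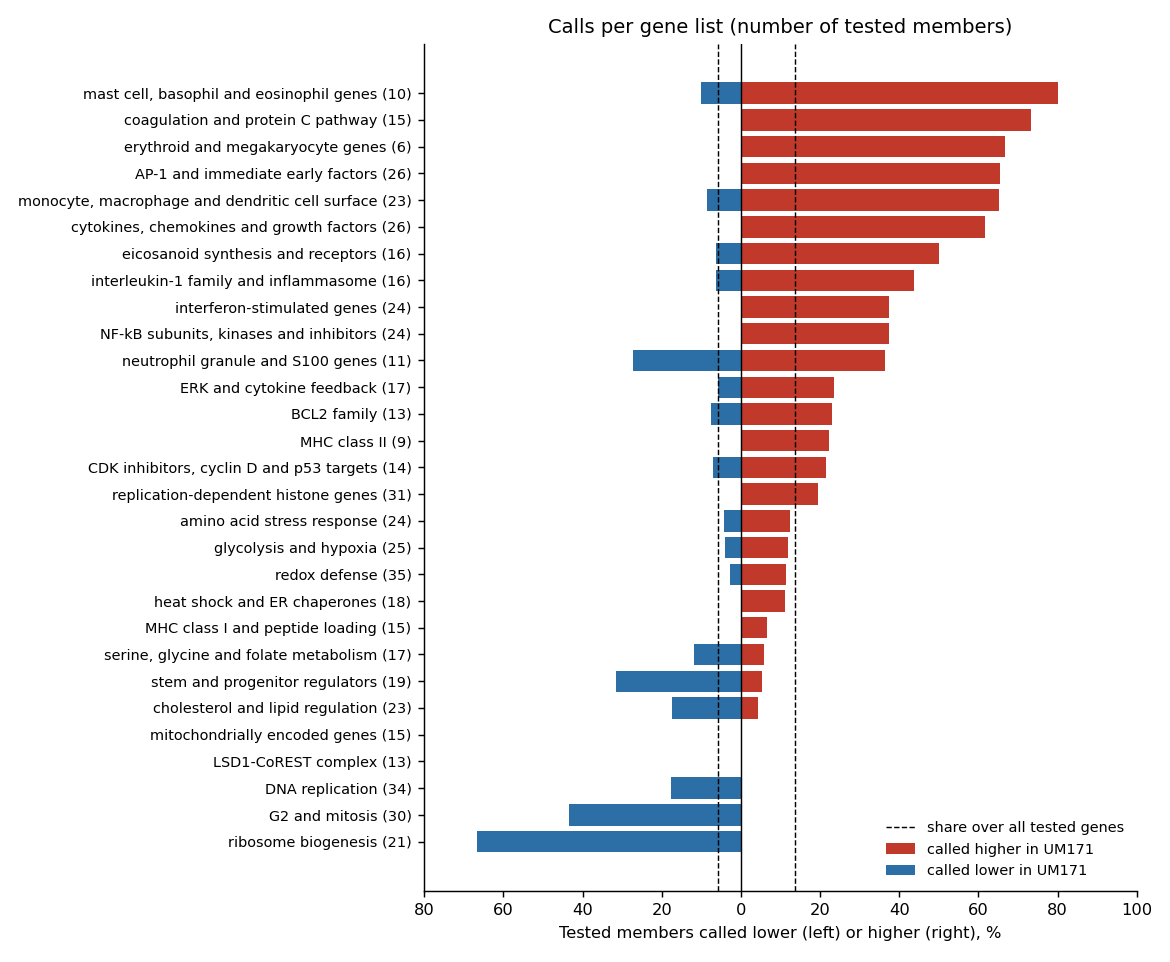
Percent of the tested members of each gene list that were called higher (red, to the right) or lower (blue, to the left) in UM171, with the number of tested members in brackets. Dashed lines mark the shares over all tested genes, 13.7% higher and 5.91% lower. Mast cell, coagulation, erythroid and megakaryocyte, AP-1, monocyte surface and cytokine lists lie far to the right, and ribosome biogenesis and mitosis to the left. Members almost absent in DMSO could enter only as rises, and the lists were chosen with earlier results known. Distance from the dashed lines is therefore a description and not a test.

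As each group held 1 high-mitochondrial library, the response could be read within each state. Without these 2 libraries 3767 of 15675 genes were called, 2661 higher and 1106 lower. They included 1946 of the 2043 rises and 798 of the 884 falls named above, which were called partly on the same libraries. The high-mitochondrial pair, with 1 library a group and hence no test, was then read for the genes called without it, as far as they were among the 14954 genes tested in 6 libraries. Of 2307 such rises 2258 were higher in UM171 replicate 2 than in DMSO replicate 1, 1883 of them by over 2-fold. Of 1041 such falls 1022 were lower, 823 of them by over 2-fold. The spread beyond counting error, which edgeR names the biological coefficient of variation, was 0.263 over 6 libraries and 0.0261 without the 2. Whether the libraries came from separate cultures is not given, so p-values without the 2 may measure mostly technical spread. The difference between states was itself large, with 492 genes higher and 1387 lower in the high-mitochondrial libraries when a term for them was added. The part of this difference in single values was not tested.

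**Figure D4:**
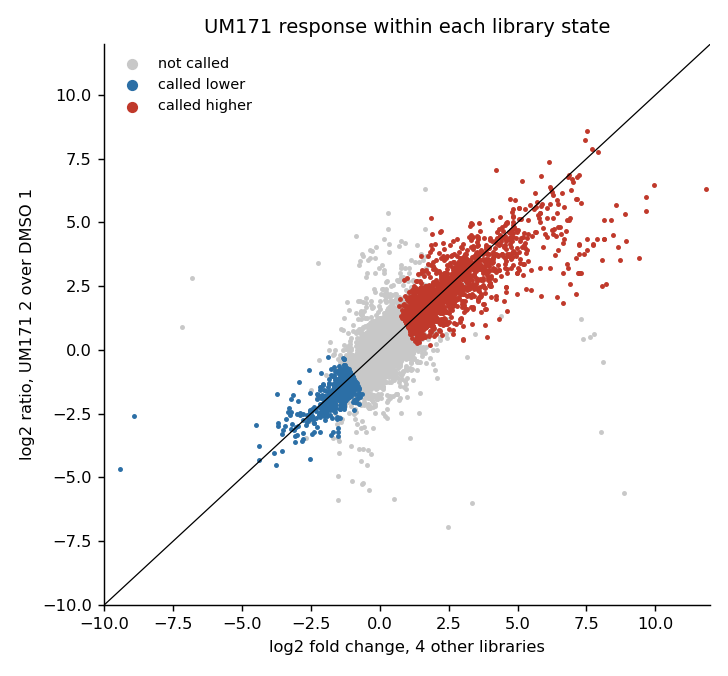
Log2 ratio of UM171 replicate 2 over DMSO replicate 1, the 2 high-mitochondrial libraries, against the log2 fold change in the 4 other libraries, 1 point per gene. Red, called higher; blue, called lower; grey, not called; the line marks equal values. The coloured genes were called in all 6 libraries, including the pair on the vertical axis, so their side of 0 there is largely set by that choice.

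The last comparison asked where the response of sgEPCR cells differed from that of control OCI-AML5 cells, by an interaction term in a fit of 12 libraries. Of 15901 genes tested, 4125 (25.9%) had a response that differed by over 2-fold with an adjusted p under 0.05, 2233 higher in sgEPCR cells (14.0%) and 1892 lower (11.9%). With limma on log2(TPM + 1) the counts were 960 and 425. The DMSO libraries of the control cells were labelled 72 h and those of sgEPCR cells 24 h, so genotype, clone and time in culture cannot be told apart. Of the 2043 genes called higher in sgEPCR cells 734 (35.9%) were also called higher in control cells, which is 46.2% of the 1589 control rises among these genes. Of the 884 genes called lower 112 (12.7%) were also lower in control cells, 12.9% of 866 control falls. A further 155 genes rose in sgEPCR cells and fell in control cells. They were 17.9% of the control falls, against 13.7% of all genes called higher in sgEPCR cells. Another 40 did the reverse, 2.52% of the control rises, against 5.91% of all genes called lower in sgEPCR cells.

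Among genes with a called difference and a mean log2 CPM over 2, the 5 largest positive differences were ATP6V0D2, HMOX1, CCL4L2, TNFSF14 and SLAMF7. In control cells HMOX1 was at 41.9, 54.0 and 51.8 TPM in DMSO and 2.88, 3.55 and 3.15 TPM in UM171, a log2 fold change of -3.98, and the responses differed by 8.54 ± 0.62 (adjusted p = 2.5e-06). The level of HMOX1 in DMSO differed as well, with a log2 difference of -5.60 between sgEPCR and control cells. ATP6V0D2, a subunit of the vacuolar proton pump, was at 0.05, 0.02 and 0.06 TPM in DMSO and 7.20, 4.42 and 7.62 TPM in UM171 in sgEPCR cells. It stayed between 0.06 and 0.33 TPM in all 6 control libraries, and the responses differed by 8.68 ± 0.68 (adjusted p = 4.2e-06). SLAMF7 had a log2 fold change of 1.30 in control cells, and the responses differed by 6.30 ± 0.24. Its level in DMSO differed by -4.49 on the log2 scale between sgEPCR and control cells. The same difference in DMSO was -3.08 for CCL4L2, -2.57 for TNFSF14 and -2.11 for ATP6V0D2. A difference in response thus holds the difference in starting level as well as that in UM171.

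The 5 largest negative differences were MPO, the noncoding KBTBD11-OT1, BCL11A, UGT3A2 and PAWR. MPO had a log2 fold change of 0.90 in control cells and fell in sgEPCR cells, a difference of -4.38 ± 0.16 (adjusted p = 5.9e-08). BCL11A likewise was at 16.5 to 19.3 TPM in DMSO and 27.7 to 30.2 TPM in UM171 in control cells, and the difference was -4.05 ± 0.28. UGT3A2, a glycosyltransferase, went from 0.58 to 1.19 TPM to 19.8 to 22.5 TPM in control cells, while sgEPCR cells were at 3.10, 7.63 and 7.37 TPM in DMSO and 12.5, 6.61 and 13.7 TPM in UM171. The difference for UGT3A2 was -3.97 ± 0.15. PAWR, a proapoptotic regulator, fell by 2.00 in sgEPCR cells and had a log2 fold change of 1.91 in control cells. For these 5 genes the log2 difference in DMSO between sgEPCR and control cells was 1.44 (BCL11A) to 3.39 (UGT3A2). Their negative differences in response thus hold a higher starting level in sgEPCR cells as well.

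By list, the difference was positive for 8 of 10 mast cell, basophil and eosinophil genes, 15 of 26 AP-1 and immediate early genes, 13 of 23 monocyte and macrophage receptors and 10 of 24 NF-kB genes, and negative for 1, 1, 1 and 0. Over all genes tested the shares were 14.0% positive and 11.9% negative. Cytokines had 8 positive and 1 negative of 26, and coagulation genes 7 and 2 of 15. IL1RN had a log2 fold change of -0.53 in control cells and TREM1 of -0.79, and their differences were 2.55 ± 0.12 and 5.47 ± 0.24. In DMSO their levels differed by -1.27 and -2.48 on the log2 scale between sgEPCR and control cells. The cell cycle lists had the opposite sign. The difference was negative for 27 of 34 DNA replication genes and 25 of 30 genes of G2 and mitosis and positive for 0. Their median log2 fold change was 0.41 and 0.55 in control cells and -0.81 and -0.94 in sgEPCR cells. For the members of these lists named above, the log2 difference in DMSO between sgEPCR and control cells was 0.02 (CDC20) to 1.02 (CCNA2). Ribosome biogenesis genes had a median log2 fold change of -0.55 in control cells, and 8 of 21 had a negative difference. Redox defense genes had 12 negative and 3 positive differences of 35, and the serine, glycine and folate list 10 negative and 1 positive of 17.

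**Figure D5:**
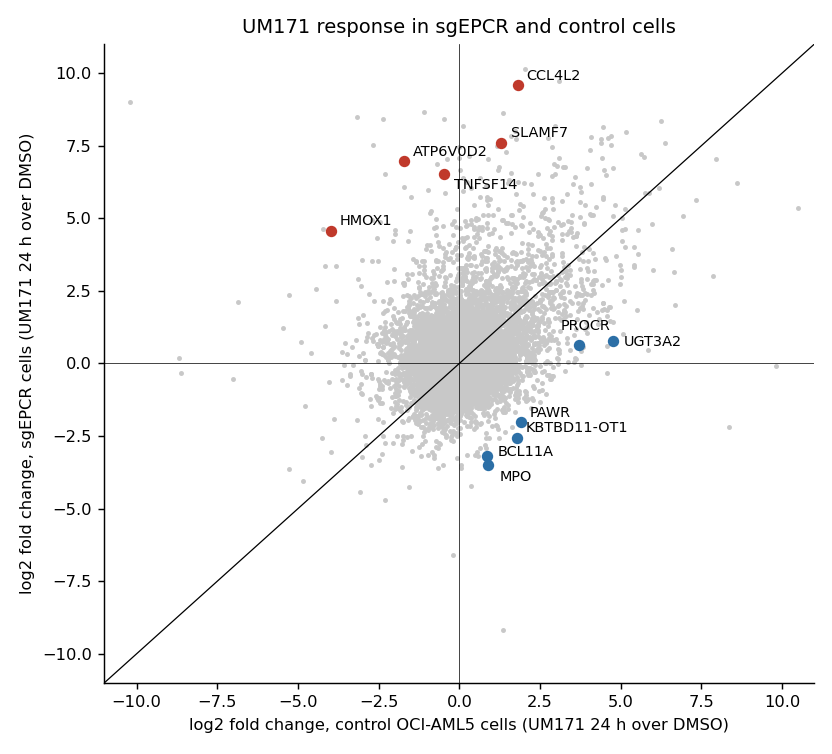
Log2 fold change of UM171 over DMSO in sgEPCR cells against that in control OCI-AML5 cells, 1 point per gene, from the fit of 12 libraries. The line marks equal responses, and the genes with the largest differences and PROCR are labelled (red, higher response in sgEPCR cells; blue, lower). HMOX1 lies at -3.98 in control cells.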

How the data were processed

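RNA of OCI-AML5 cells was made into stranded poly(A) libraries. Per the labels, the submitters' processing notes name CASAVA 1.8.2, Trimmomatic 0.35, STAR 2.5.1b, RSEM 1.2.28 and GRCh38. The values the authors deposited were RSEM expected counts per gene without normalization, with ambiguous reads divided among genes. The TPM that the authors deposited were scaled by transcript length to one total per library. Expected counts were rounded and tested with edgeR 4.0.16 (R 4.3.3; filterByExpr, TMM, glmQLFit, glmQLFTest, Benjamini-Hochberg over all genes tested) in the 6 sgEPCR libraries, and with an interaction term in 12 libraries. TPM gave the levels. DESeq2 1.42.0, limma 3.58.1 on log2(TPM + 1) or log2(TPM + 0.1), other scalings, filters and thresholds, a replicate block and left-out libraries were alternatives. A term for the high-mitochondrial libraries, and list counts without them, were added after seeing the data. Totals were 28 to 42.7 M counts per library. The floor of 3 counts and the 95% intervals cover counting error only.

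The gene lists, markers and genes named were chosen with earlier results of these data known. Named were PROCR, the 15 largest rises and falls (mean log2 CPM over 2, no overlap in TPM), up to 5 called members and the most abundant member of each list, the 5 largest differences in response in each direction, and genes the study names for this line. Not every gene that the rule allows is described, and 1 is not reported here. The labels do not say whether replicate numbers pair the libraries, and the main fit used no pairing. On simulated data of the main comparison (14783 genes) edgeR recovered 92 of 100 genes changed by 2 on the log2 scale and 98 of 100 changed by 3, with 10 false calls, and for the interaction (15647 genes) 93 and 95 of 100, with 12 false calls. The simulation changed 100 genes by each size, whereas 2927 genes were called in the real main comparison. Its recovery and false calls are therefore no measure of the error rate in the real data. Figures used Python 3.11.15 and matplotlib 3.10.9.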

Additional observations from a re-analysis of the deposited data

Results flagged for a closer look

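The response to UM171 differed between sgEPCR and control cells for 4125 genes by edgeR's interaction test. The largest positive differences on the log2 scale were 8.68 for ATP6V0D2, 8.54 for HMOX1, 7.77 for CCL4L2, 7.0 for TNFSF14 and 6.30 for SLAMF7. The largest negative ones were -4.38 for MPO, -4.34 for KBTBD11-OT1, -4.05 for BCL11A, -3.97 for UGT3A2 and -3.93 for PAWR, and PROCR had -3.06. In DMSO the genes with these positive differences were lower in sgEPCR than in control cells, and those with the negative ones higher, as given above. The control DMSO libraries were labelled 72 h, so time and genotype cannot be told apart. CCL4L2 had 1 count in the sgEPCR DMSO libraries, so the size of its difference depends on the prior count. With 3 libraries a group, single libraries were not tested as outliers.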

How the results depend on the processing

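For the 2927 genes called in sgEPCR cells, the count was 60 (57 higher, 3 lower) at an adjusted p under 0.0001, 5535 with no minimum fold, 685 with limma on log2(TPM + 1), 951 with limma on log2(TPM + 0.1) and 1857 with the replicate block. Leaving out 1 library gave 2373 to 3227, and DESeq2 gave 3108. For the 4125 differences in response, the count was 1236 (573 higher, 663 lower) at an adjusted p under 0.0001 and 7158 (3483 higher, 3675 lower) with no minimum fold, so that both turn the main split of 2233 higher and 1892 lower. It was 1385 with limma on log2(TPM + 1) and 1665 with limma on log2(TPM + 0.1). Leaving out 1 library gave 3779 to 4620, and the replicate block 3370. Same-numbered libraries deviated from their group means with correlations of -0.841, -0.842 and 0.74. These signs follow from which libraries were high-mitochondrial, so they cannot show whether the numbers pair the libraries. Of 112 genes named with values, 15 were no longer called with the replicate block, 43 and 37 with limma on log2(TPM + 1) and log2(TPM + 0.1), and 90 at the stricter threshold. DESeq2 changed the call of 0 of them. PROCR, at 0.67, passed with no minimum fold. RELA ranged from -0.023 to 0.17 when 1 library was left out, reversing to -0.0054 without DMSO replicate 2 and -0.023 without DMSO replicate 3, and was never called. RNASE2 was called lower without both high-mitochondrial libraries (-1.10), in fits of 12 (-1.25) and 21 libraries (-1.26), and with a term for them (-1.17). The cause of these changes was not tested.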

Other observations

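Genes that separated the 2 high-mitochondrial libraries from the other 4 were read after their values were seen. The log2 difference was 5.29 for TMSB4XP4 and EIF3CL, 3.21 for MTATP6P1 and 2.66 for PLBD2, and -2.66 for MATR3, -2.29 for S1PR4 and -1.91 for IPO4. TMSB4XP4, a pseudogene that can share reads with its parent gene, was at 430 TPM in DMSO replicate 1 and 1218 TPM in UM171 replicate 2, against 29.5 to 48.5 TPM in the other 4 libraries.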
